A study of Mus musculus with 8 samples.

Results

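The 10 genes described here encode enzymes, a chaperone and an enhancer of propeptide removal that take part in turning newly made collagen chains into crosslinked fibres: Lox, Loxl1, Loxl2, Loxl3, Plod1, Plod2, P4ha1, P4ha2, Serpinh1 and Pcolce. They were taken by gene symbol from the 49671 genes of the deposited table, and each symbol matched 1 row. The libraries hold left ventricular RNA of male mice of the C57BL/6N strain, which entered the study at 8 weeks of age. Hearts were taken 4 weeks after transverse aortic constriction (TAC, a band around the aortic arch that loads the left ventricle with pressure) or a sham operation. The diet was SFA, which is low in fat, or SFA-EAA, where free essential amino acids stood in for 93.5% of the casein. The 4 groups were TAC SFA-EAA, sham SFA-EAA, TAC SFA and sham SFA, with 2 libraries each and 1 strain throughout. Whether the 2 libraries of a group stem from different animals is not stated, and p-values therefore measure only the spread between these libraries, which may be technical.

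Collagen chains are modified before they fold. Prolyl 4-hydroxylases hydroxylate prolines, which lets the triple helix stay folded at body temperature, and lysyl hydroxylases hydroxylate lysines, which sets the kind of crosslink that can form later. Hsp47, the product of Serpinh1, binds the folded procollagen in the endoplasmic reticulum. After secretion the propeptides are cut off, a step that the Pcolce protein speeds up, and lysyl oxidases convert lysines into aldehydes that join neighbouring molecules. In the heart these genes are expressed mainly by fibroblasts, and crosslinked collagen stiffens the ventricle. In RNA from whole tissue, fewer cells of a type and less RNA per cell cannot be told apart.

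Every one of the 10 genes was detected in all 8 libraries and entered the test. Values are the authors' edgeR-normalized values, called normalized values below, and fold changes come from log2(normalized value + 1). The 8 libraries summed to between 5136441 and 6298743 normalized values, with 14202 to 15844 genes at 1 or more. Mitochondrial genes made up 33.6% and 39.5% of the sum in TAC SFA-EAA, 37.3% and 34.7% in sham SFA-EAA, 27.7% and 22.1% in TAC SFA, and 29.2% and 30.3% in sham SFA libraries, so that this share was higher in every SFA-EAA library and lowest in the TAC SFA libraries. The 8 cardiomyocyte markers were present in all libraries, and summed to between 336500 and 418000 in TAC SFA-EAA, 371000 and 389300 in sham SFA-EAA, 350300 and 372700 in TAC SFA, and 422900 and 423700 in sham SFA libraries. Atrial markers (Myl7, Sln and Myl4) summed to 1080 in the second TAC SFA library and 1388 in the first sham SFA library, and to between 9.81 and 92.1 in the other 6 libraries. Libraries also differed in how their values moved with the GC content of the transcripts: Spearman's rho across genes was 0.470 and -0.759 in TAC SFA-EAA, -0.652 and -0.445 in sham SFA-EAA, 0.359 and 0.471 in TAC SFA, and 0.537 and 0.558 in sham SFA. A positive rho means that GC-rich genes were high in that library relative to the mean of all 8. The rho was negative in 3 of the 4 SFA-EAA libraries and positive in the other 5 libraries. A fit on values with this trend removed is given beside the counts that it changes.

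**Figure D1:**
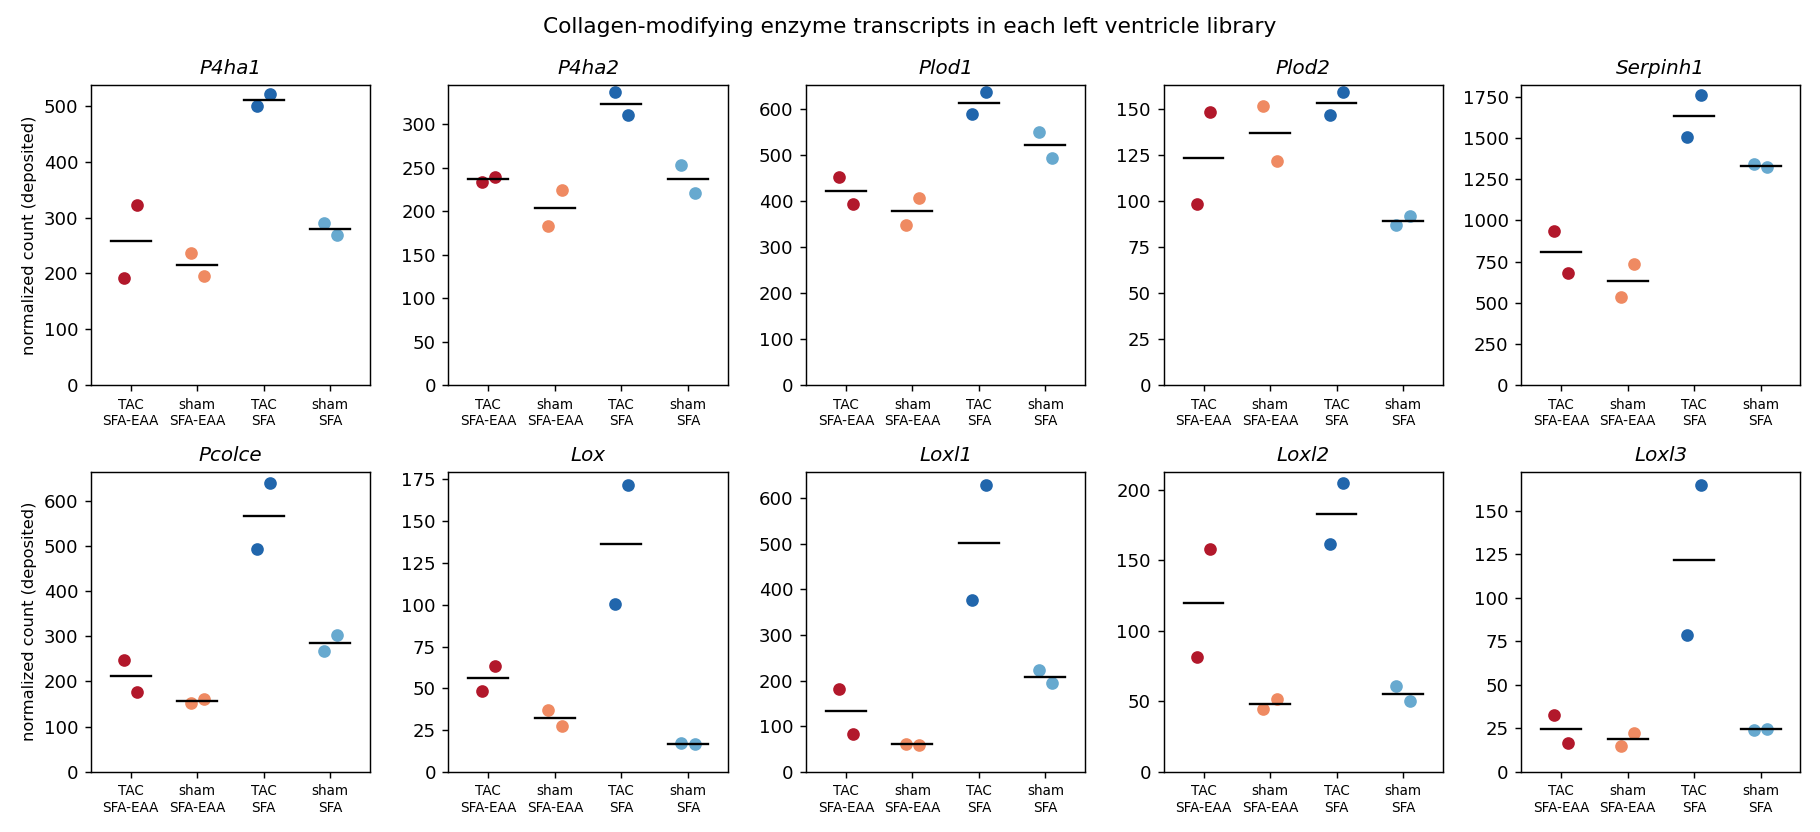
Normalized value of each of the 10 genes (vertical axes, linear, starting at 0) in the 8 left ventricle libraries, by group. Points are libraries and lines are group means of 2 libraries; in each panel both TAC SFA points lie above both sham SFA points.

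Under the SFA diet, the crosslinking enzymes Lox and Loxl2 and the propeptide processing enhancer Pcolce rose after TAC. Lox had the largest fold of the 10 genes (7.48-fold), Loxl2 was 3.25-fold and Pcolce 1.97-fold higher in TAC than in sham libraries. These 3 of 10 genes passed the test (limma, Benjamini-Hochberg adjusted p under 0.05 over 16432 genes), where 0.834% of all genes tested rose. All 10 genes were higher in both TAC SFA libraries than in either sham SFA library, as were 24.3% of all genes. Their median log2 fold change was 0.92, against 0.01 over all genes tested, and 8 of them were at an unadjusted p under 0.05, as were 13.4% of all genes. The chaperone Serpinh1 and the lysyl hydroxylase Plod1, which were already abundant in sham hearts, had the smallest folds.

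Lox, on chromosome 18, encodes the founding lysyl oxidase, which acts on fibrillar collagen and elastin. It measured 100.5 and 172 in TAC SFA libraries, against 17.1 and 16.4 in sham SFA libraries. Its lowest TAC value was several times its highest sham value, and the log2 fold change was 2.90 ± 0.31 (SE; limma adjusted p = 0.00438). Loxl2 (GRCm38, chr14:69609068-69695834, plus strand), a lysyl oxidase that also acts on the collagen IV of basement membranes, measured 161 and 205 in TAC SFA libraries and 60.9 and 50.2 in sham SFA libraries, with a log2 fold change of 1.70 ± 0.30 (SE; limma adjusted p = 0.0352). Here too the groups were well apart, in the same direction in both TAC libraries.

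Loxl3 (chr6:83034173-83052562, plus strand), a further lysyl oxidase gene, measured 78.6 and 165 in TAC SFA libraries and 24.1 and 24.8 in sham SFA libraries. The TAC libraries differed from each other by more than the sham mean, and the log2 fold change of 2.18 ± 0.43 (SE) lay just outside the threshold (limma adjusted p = 0.0512). Loxl1 (chr9:58287738-58313186, minus strand), which in mice is needed to maintain elastic fibres, measured 376 and 629 in TAC SFA libraries and 224 and 194 in sham SFA libraries. That fold change of 2.33 did not pass (limma adjusted p = 0.147), although the groups did not overlap.

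Pcolce (chr5:137605103-137613784, minus strand), whose product binds the procollagen C-propeptide and enhances its removal by Bmp1, measured 492 and 640 in TAC SFA libraries and 267 and 303 in sham SFA libraries. Its log2 fold change was 0.98 ± 0.19 (SE; limma adjusted p = 0.0489), so that it passed by a narrow margin. It missed with a pseudocount of 0.25 (adjusted p = 0.0572) and with quantile normalization (adjusted p = 0.0561).

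The hydroxylases showed smaller differences, and none of the 4 passed the test. P4ha1 (chr10:59323296-59373304, plus strand), a catalytic alpha subunit of collagen prolyl 4-hydroxylase, measured 500.0 and 521 in TAC SFA libraries and 290.0 and 270 in sham SFA libraries (1.82-fold, limma adjusted p = 0.109). P4ha2 (chr11:54100095-54131665, plus strand), which encodes another alpha subunit of that enzyme, measured 338 and 310 in TAC SFA libraries and 254 and 221 in sham SFA libraries (1.37-fold, limma adjusted p = 0.21). Replicates of the prolyl hydroxylase genes lay close together within each of these groups.

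Plod2 (chr9:92542223-92608428, plus strand), the lysyl hydroxylase of the collagen telopeptides, measured 147 and 160 in TAC SFA libraries and 86.9 and 91.8 in sham SFA libraries (1.71-fold, limma adjusted p = 0.14). Plod1 (chr4:147909753-147936767, minus strand), which hydroxylates lysines of the helical part, measured 587 and 637 in TAC SFA libraries and 549 and 492 in sham SFA libraries (1.18-fold, limma adjusted p = 0.518). Serpinh1 (chr7:99345376-99353239, minus strand), the chaperone gene, measured 1508 and 1761 in TAC SFA libraries and 1343 and 1322 in sham SFA libraries (1.22-fold, limma adjusted p = 0.581). For these last 2 genes the ends of the 95% interval of the log2 fold change were -0.07 and 0.54 for Plod1 and -0.13 and 0.71 for Serpinh1.

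The calls of this comparison rest on few libraries. Lox no longer passed without TAC SFA replicate 2 (limma adjusted p = 0.115), sham SFA replicate 1 (0.0623) or sham SFA replicate 2 (0.0815), while its log2 fold change stayed between 2.52 and 3.29. Loxl2 and Pcolce passed with either TAC SFA-EAA library left out and missed with any of the other 6 left out (adjusted p between 0.11 and 0.364 for Loxl2 and between 0.103 and 0.394 for Pcolce). Without both libraries of high atrial marker sums, TAC SFA and sham SFA held 1 library each, so that no call is read there. The log2 fold changes were then 2.55 for Lox, 1.67 for Loxl2 and 0.70 for Pcolce. The part of atrial tissue in these calls was not tested. After the GC trend was removed, 7 of the 10 rose (Lox, Loxl1, Loxl2, Loxl3, Plod2, P4ha1 and Pcolce), beside 2.62% of all genes. That fit called 430 genes higher and 354 lower, against 137 higher and 68 lower on the values as deposited.

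Promoters are shown for P4ha1, P4ha2 and Serpinh1, which were chosen because they hold the core letters of the hypoxia response element. Prolyl 4-hydroxylases use oxygen, and their genes are known targets of the hypoxia-inducible factor. RefSeq promoter entries (build GRCm38.p6) were found for 5 of the 10 genes: Plod1, P4ha1, P4ha2, Serpinh1 and Pcolce. The 250 bases before each start were searched on both strands for ACGTG, the core letters of the hypoxia response element, written in capitals below (CACGT is the same core on the other strand). P4ha1 lies at chr10:59323046-59323295 on the plus strand, P4ha2 at chr11:54100674-54100923 on the plus strand and Serpinh1 at chr7:99353240-99353489 on the minus strand. The P4ha2 window lies inside the gene as the annotation of the table's build draws it, since RefSeq takes a later start. All are printed 5′ to 3′ on the gene's strand.
P4ha1: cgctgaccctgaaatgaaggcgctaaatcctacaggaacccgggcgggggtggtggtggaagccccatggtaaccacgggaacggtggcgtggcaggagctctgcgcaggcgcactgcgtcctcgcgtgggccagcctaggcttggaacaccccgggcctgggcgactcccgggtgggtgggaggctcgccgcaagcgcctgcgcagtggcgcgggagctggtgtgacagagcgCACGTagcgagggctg
P4ha2: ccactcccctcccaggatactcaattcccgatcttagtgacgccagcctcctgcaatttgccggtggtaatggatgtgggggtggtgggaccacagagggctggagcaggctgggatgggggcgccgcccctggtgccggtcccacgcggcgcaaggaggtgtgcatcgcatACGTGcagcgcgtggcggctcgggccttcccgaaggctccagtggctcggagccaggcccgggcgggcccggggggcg
Serpinh1: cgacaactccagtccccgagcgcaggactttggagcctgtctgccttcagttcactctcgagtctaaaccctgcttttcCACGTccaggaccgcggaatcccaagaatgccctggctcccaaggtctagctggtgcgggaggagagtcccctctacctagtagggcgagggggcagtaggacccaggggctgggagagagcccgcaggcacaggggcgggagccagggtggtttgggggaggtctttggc
The core occurs once in each of these windows, beginning 16 bases before the start in P4ha1, 78 in P4ha2 and 171 in Serpinh1. The letters are not in the windows of Plod1 and Pcolce. The Pcolce window (chr5:137611405-137611654, minus strand) also lies inside the gene as the annotation of the table's build draws it. Of 32851 promoters of the same length, 16.6% hold them, and a match is a description of the sequence, not a site.

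A list of 15 hypoxia-responsive genes was read beside these sequences. None of the 15 passed the test in TAC against sham under SFA. Their median log2 fold change was 0.19, against 0.01 over all genes tested. Of the 15, 13 had positive log2 fold changes and 2 had negative ones. The part of hypoxia in the results was not tested. At an unadjusted limma p under 0.05 there was 1 of the 15, beside 13.4% of all genes. Egln1, the oxygen-sensing prolyl hydroxylase that the hypoxia-inducible factor itself induces, had the smallest p, with a log2 fold change of -0.39 (limma adjusted p = 0.139). Ndrg1, a gene induced by low oxygen, came next with 0.37 (adjusted p = 0.385).

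Under the SFA-EAA diet, none of the 10 genes passed the test in TAC against sham libraries. Among all genes 0.0122% rose under limma, and 3 of the 10 were at an unadjusted p under 0.05, as were 8.57% of all genes. Of the 10 genes 9 had positive log2 fold changes, with a median of 0.34. For 5 genes (Lox, Loxl1, Loxl2, P4ha2 and Pcolce) both TAC libraries were above both sham libraries, as for 18.5% of all genes.

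Loxl2 measured 81.2 and 158 in TAC SFA-EAA libraries and 44.7 and 51.5 in sham SFA-EAA libraries, and had the largest fold of this comparison (2.33-fold, limma adjusted p = 0.327). Loxl1 measured 182 and 83.03 in TAC SFA-EAA libraries and 60.7 and 59.2 in sham SFA-EAA libraries (2.03-fold, adjusted p = 0.484). Lox measured 48.3 and 63.4 in TAC SFA-EAA libraries and 37.1 and 27.3 in sham SFA-EAA libraries (1.72-fold, adjusted p = 0.532). In each of these 3 genes both TAC values lay above both sham values.

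Pcolce measured 247 and 178 in TAC SFA-EAA libraries and 153 and 162 in sham SFA-EAA libraries. Loxl3 measured 32.8 and 16.4 in TAC SFA-EAA libraries and 14.9 and 22.3 in sham SFA-EAA libraries, so that its groups overlapped. P4ha1 overlapped as well, with 192 and 323 in TAC SFA-EAA libraries and 236 and 195 in sham SFA-EAA libraries. P4ha2 did not overlap, with 234 and 240.0 in TAC SFA-EAA libraries and 183 and 225 in sham SFA-EAA libraries.

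Plod1, Plod2 and Serpinh1 overlapped between TAC and sham under SFA-EAA. Plod1 measured 453 and 392 in TAC SFA-EAA libraries and 348 and 407 in sham SFA-EAA libraries. Plod2 was the 1 gene with a negative log2 fold change (-0.17), at 98.6 and 149 in TAC SFA-EAA libraries and 152 and 122 in sham SFA-EAA libraries. Serpinh1 measured 934 and 683 in TAC SFA-EAA libraries and 537 and 732 in sham SFA-EAA libraries. The signs of 3 genes rested on TAC SFA-EAA libraries: Loxl3 was -0.14 and Plod2 0.12 without replicate 1, and P4ha1 was -0.16 without replicate 2.

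Averaged over the diets, the same 3 genes rose in TAC against sham libraries, beside 1.38% of all genes (limma). Lox was 3.58-fold (adjusted p = 0.00558), Loxl2 2.75-fold (adjusted p = 0.012) and Pcolce 1.62-fold higher (adjusted p = 0.0373), and all 10 log2 fold changes were positive. For Lox and Loxl2 all 4 TAC libraries were above all 4 sham libraries, which held for 3.73% of all genes. Loxl1 (2.18-fold, adjusted p = 0.0556) and Loxl3 (2.39-fold, adjusted p = 0.0786) missed the threshold. Lox missed without TAC SFA replicate 2, sham SFA replicate 2 or sham SFA-EAA replicate 2 (adjusted p = 0.0558, 0.0524 and 0.0584). Loxl2 passed only with either TAC SFA-EAA library left out and Pcolce only with TAC SFA-EAA replicate 2 left out, among the 8 libraries. With the GC trend removed, 7 of the 10 rose (Lox, Loxl1, Loxl2, Loxl3, P4ha1, Serpinh1 and Pcolce), beside 3.44% of all genes. Leaving out both libraries of high atrial marker sums leaves a lone library in TAC SFA and in sham SFA, so that no call is read from that fit.

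**Figure D2:**
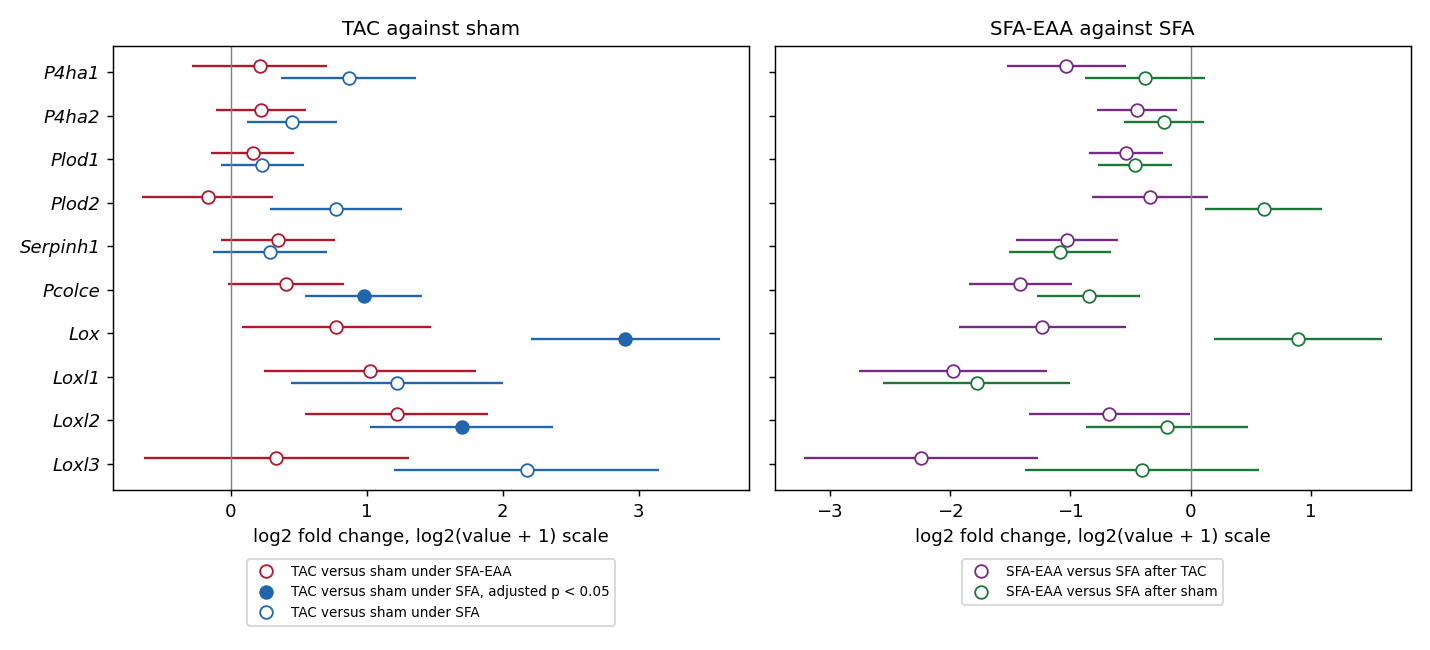
Log2 fold change of TAC over sham for the 10 genes (horizontal axis), under SFA-EAA and under SFA on the left, and of SFA-EAA over SFA, after TAC and after sham, on the right, with 95% intervals as lines. Filled markers show the 3 genes that passed the test (Lox, Loxl2 and Pcolce, for TAC under SFA), and on the right all 10 points after TAC lie below 0.

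After TAC, all 10 genes had negative log2 fold changes for SFA-EAA against SFA, with a median of -1.03 (-0.03 over all genes tested), and none passed the test. Among all genes 0.0365% fell under limma, and 9 of the 10 were at an unadjusted p under 0.05, as were 15.1% of all genes. In 9 of the 10 (Plod2 excepted) both SFA-EAA libraries were below both SFA libraries, as for 21.1% of all genes. These TAC SFA libraries are the ones used against sham above, so the 2 comparisons are not independent.

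Pcolce, at 247 and 178 in TAC SFA-EAA libraries and 492 and 640 in TAC SFA libraries, came nearest to the threshold (log2 fold change -1.42 ± 0.19 SE, limma adjusted p = 0.0525). Loxl3 had the lowest log2 fold change, -2.25 ± 0.43 (SE; adjusted p = 0.0913), and Loxl1 followed with -1.98 ± 0.35 (SE; adjusted p = 0.0736). Serpinh1, at 934 and 683 in TAC SFA-EAA libraries and 1508 and 1761 in TAC SFA libraries, was at -1.03 ± 0.19 (SE; adjusted p = 0.0817). These genes are of 3 different roles, a propeptide enhancer, lysyl oxidases and a chaperone.

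P4ha1 (-1.03, adjusted p = 0.124), Lox (-1.23, adjusted p = 0.144) and Plod1 (-0.54, adjusted p = 0.146) were further from the threshold in the same limma fit. P4ha2 (-0.45), Loxl2 (-0.68) and Plod2 (-0.34) had the highest adjusted p, between 0.223 and 0.482. After removal of the GC trend 6 genes fell (Lox, Loxl1, Loxl3, P4ha1, Serpinh1 and Pcolce), beside 0.876% of all genes, and that fit called 138 genes higher and 144 lower against 2 higher and 6 lower as deposited. On the values as deposited, 6 of the 10 passed without TAC SFA-EAA replicate 1 (Loxl1, Loxl3, Plod1, P4ha1, Serpinh1 and Pcolce), among 1395 genes called, and 0 of the 10 and 0 of all genes passed without replicate 2. Without replicate 1 every SFA-EAA library has a negative GC trend and every SFA library a positive one, so that diet and GC trend cannot be told apart there.

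After sham surgery no gene of the 10 passed for SFA-EAA against SFA, and no gene of the 16432 tested did (limma, 0%). At an unadjusted p under 0.05 there were 6 of the 10 and 2437 of all genes, which is 14.8%. Of the 10 genes 6 (Loxl1, Loxl3, Plod1, P4ha1, Serpinh1 and Pcolce) were lower in both SFA-EAA libraries, as were 27.6% of all genes. Lox and Plod2 were higher in both, and 27.6% of all genes were higher in that way.

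Loxl1 had the lowest log2 fold change, -1.78 ± 0.35 (SE), with 60.7 and 59.2 in sham SFA-EAA libraries and 224 and 194 in sham SFA libraries. Serpinh1 had -1.09 ± 0.19 (SE), with 537 and 732 in sham SFA-EAA libraries and 1343 and 1322 in sham SFA libraries. Lox, at 0.89 ± 0.31 (SE), had 37.1 and 27.3 in sham SFA-EAA libraries and 17.1 and 16.4 in sham SFA libraries. Plod2, at 0.60 ± 0.21 (SE), had 152 and 122 in sham SFA-EAA libraries and 86.9 and 91.8 in sham SFA libraries. Loxl1 and Serpinh1 thus had SFA-EAA values well under the SFA values, and Lox and Plod2 had the reverse order (adjusted p = 0.267 for Loxl1 and Serpinh1, 0.274 for Lox and 0.278 for Plod2, limma).

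The diet differences were set against transcript GC content. Lox and Plod2 have the lowest GC content of the 10 (43.9% and 43.0%), and Loxl1 (61.0%), Serpinh1 (56.4%) and Pcolce (54.8%) have the highest. With the GC trend removed, the diet difference after sham was 0.69 for Lox, 0.37 for Plod2, -1.03 for Loxl1, -0.73 for Serpinh1 and -0.61 for Pcolce on the log2 scale, so that these 5 were each nearer 0 than as deposited. P4ha1, next to them in GC content (45.7%), went against this order: it was at -0.38 as deposited and at -0.51 with the trend removed. After TAC the 3 genes of lowest GC content moved away from 0 with the trend removed, to -1.40 for Lox, -0.52 for Plod2 and -1.16 for P4ha1. Both sham SFA-EAA libraries have a negative GC trend and both sham SFA libraries a positive one. Diet and GC trend can therefore not be told apart after sham, whichever other libraries are in the fit. What set the GC trend was not tested. Without either TAC SFA-EAA library, Loxl1, Serpinh1 and Pcolce passed for the diet after sham, among 430 genes without replicate 1 and 466 without replicate 2.

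**Figure D3:**
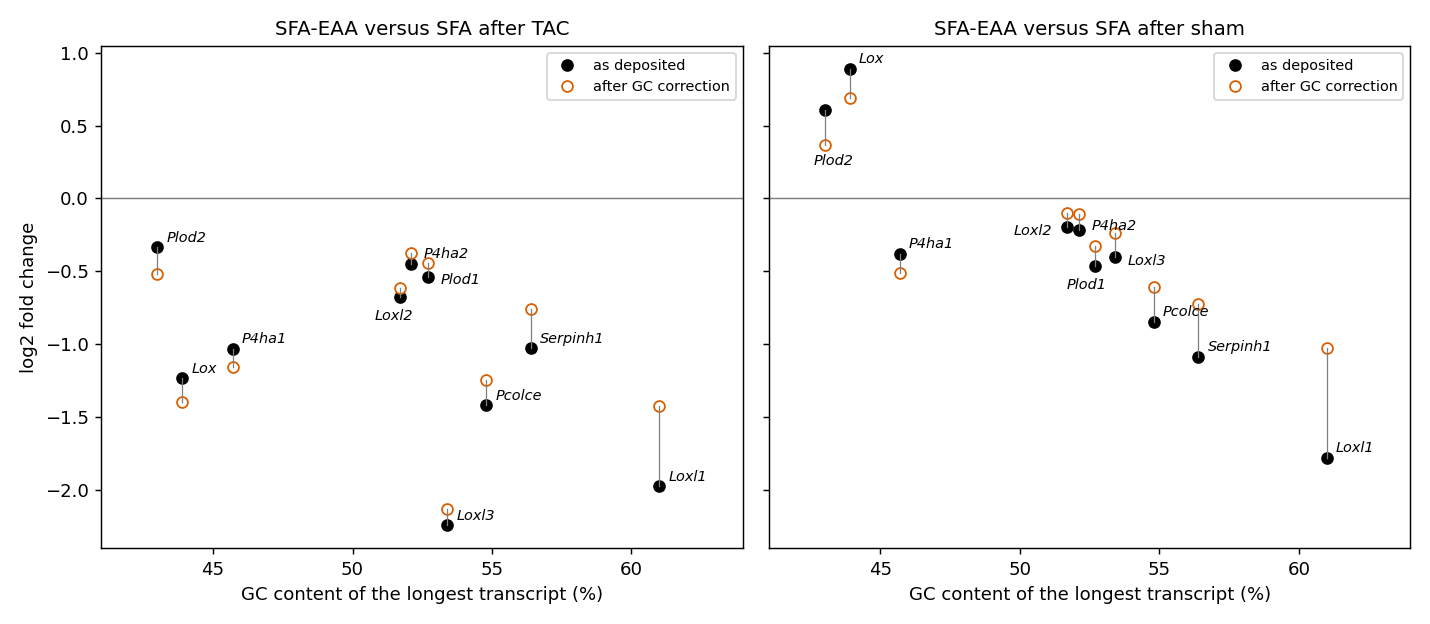
Log2 fold change of SFA-EAA over SFA (vertical axis) against GC content of the longest transcript in percent (horizontal axis) for the 10 genes, after TAC and after sham, as deposited and after the GC trend was removed. The open circles of Loxl1, at 61.0% GC, lie nearer 0 than the filled ones in both panels.

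Whether the response to TAC differed between diets was tested by the interaction, the TAC effect under SFA-EAA minus that under SFA. No gene of the 10 or of all 16432 passed (limma, 0%), with 3 of the 10 and 902 of all genes (5.49%) at an unadjusted p under 0.05. Of the 10 log2 values 9 were negative, with a median of -0.52. Lox had the lowest, -2.12 ± 0.44 (SE; unadjusted p = 0.000848, adjusted p = 0.75), with a TAC effect of 0.78 under SFA-EAA against 2.90 under SFA. Loxl3 (-1.84) and Plod2 (-0.94) were the other two at an unadjusted p under 0.05, and neither passed the adjusted test.

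Per length, the 10 genes ranged from 3.48 to 545 in sham SFA hearts, and the chaperone led. The length used was the gene length in bases deposited with the values. Serpinh1 had the highest mean normalized value per kb of that length in every group, with no overlap with the next gene. Its mean was 331 in TAC SFA-EAA, 260.0 in sham SFA-EAA, 669 in TAC SFA and 545 in sham SFA. In sham SFA hearts Plod1 (77.0), Pcolce (74.6) and P4ha1 (68.0) followed, and each overlapped its neighbour in this order. Loxl1 (63.3) overlapped P4ha1, and P4ha2 (38.0), Plod2 (16.6), Loxl2 (10.3), Loxl3 (5.31) and Lox (3.48) were each apart from the next.

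The order was altered at its top and its end in TAC SFA hearts. Loxl1 (152) and Pcolce (148) came next to Serpinh1 and overlapped each other, followed by P4ha1 (124), Plod1 (90.5), P4ha2 (51.9) and Loxl2 (33.9), none of which overlapped the next. Plod2 (28.4), Lox (28.3) and Loxl3 (26.5) overlapped in turn at the low end. In both SFA-EAA groups Loxl3 was the lowest, at 5.35 in TAC and 4.03 in sham hearts, with Lox next above it at 11.6 in TAC and 6.70 in sham hearts.

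The genes were also set against their substrate transcripts. The summed normalized value of Col1a1, Col1a2 and Col3a1, the chains of collagens I and III, was 1937 and 2027 in TAC SFA-EAA, 1018 and 1129 in sham SFA-EAA, 5351 and 8138 in TAC SFA, and 2617 and 1986 in sham SFA. Per 1000 of that sum, Lox stood at 18.8 and 21.1 in TAC SFA libraries and 6.51 and 8.26 in sham SFA libraries, a ratio of means of 2.70. Serpinh1 averaged 249 in TAC SFA and 589 in sham SFA libraries, a ratio of 0.423, and Plod1 had a ratio of 0.411.

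Of the 10 genes 2 (Lox and Loxl3, whose ratio was 1.61) were higher per collagen in both TAC SFA libraries, as were 1.94% of all genes. Apart from Loxl2, the other 7 were lower, which is no larger a share than the 80.4% of all genes that were, since every value is divided by a sum that was higher in both TAC SFA libraries. Loxl2 overlapped, with a ratio of 1.14. Under SFA-EAA no gene of the 10 was higher per collagen in both TAC libraries (4.52% of all genes were) and 6 were lower (72.4% of all genes were). There Lox averaged 28.1 in TAC and 30.3 in sham libraries. Between diets, 7 of the 10 were higher and 1 lower per collagen in both SFA-EAA libraries after sham, and 7 higher and 0 lower after TAC. The collagen sum was lower in both SFA-EAA libraries of either operation, which raises these ratios. The share of all genes is not given here. For SFA-EAA over SFA the ratio was 4.11 after sham and 1.41 after TAC for Lox, and 0.612 and 0.913 for Loxl1. No test was made of these ratios.

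**Figure D4:**
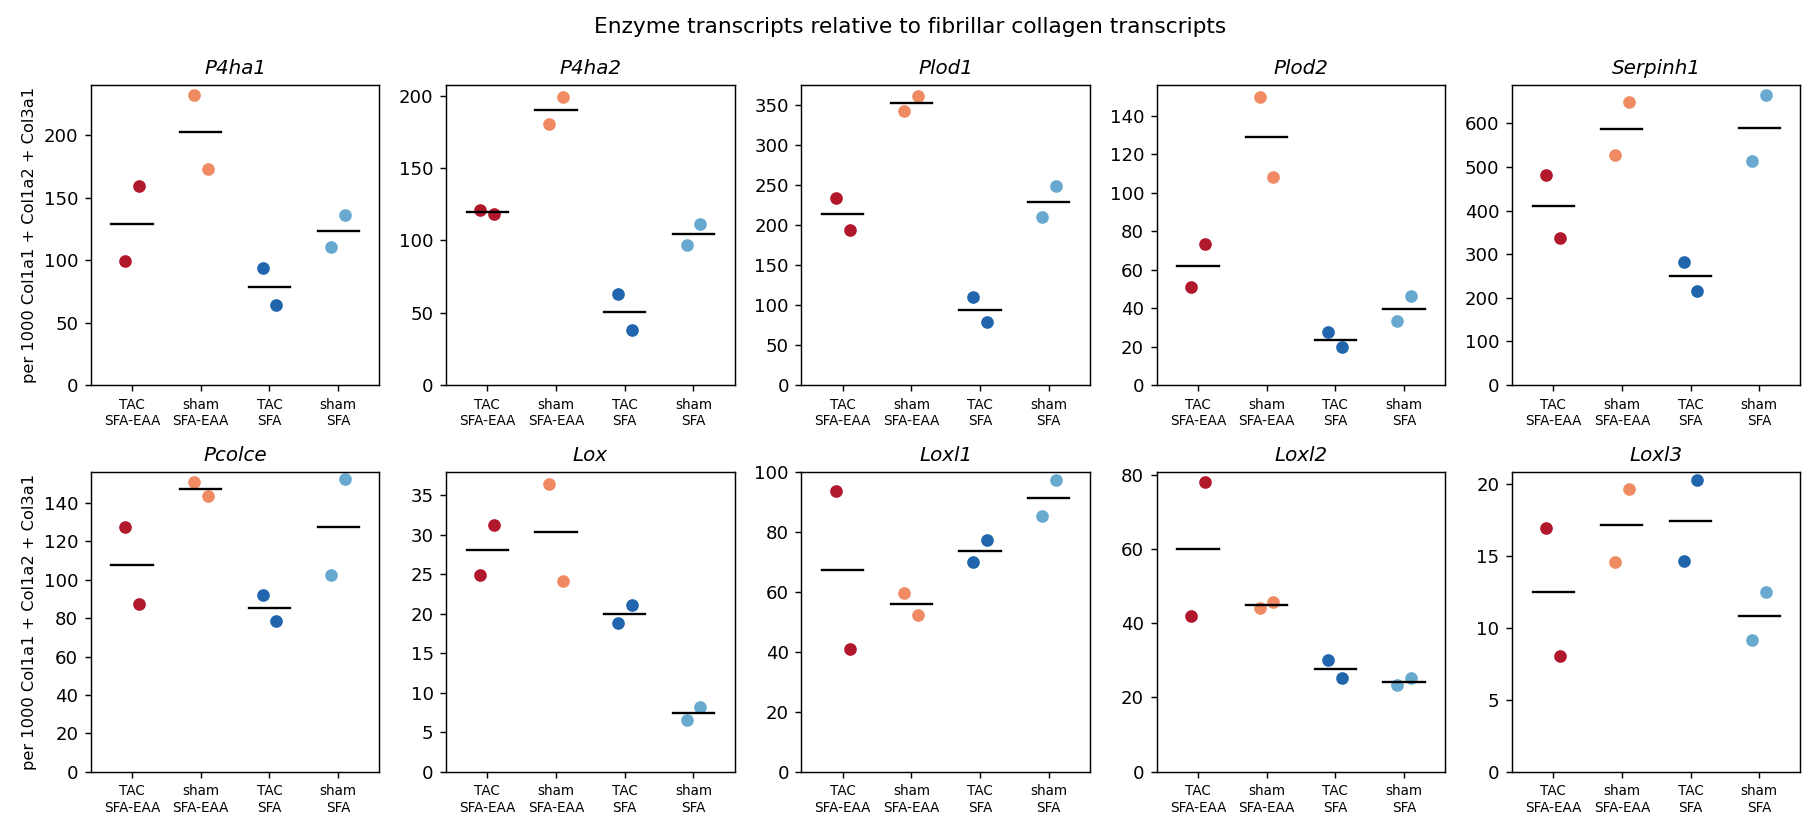
Normalized value of each gene per 1000 of the summed Col1a1, Col1a2 and Col3a1 value (vertical axes, linear, starting at 0) in the 8 libraries by group, with lines at the group means. For Lox both TAC SFA points (18.8 and 21.1) lie above both sham SFA points, and for Serpinh1 both lie below them.

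Of 9 fibrillar substrate genes tested, 5 rose in TAC against sham under SFA, beside 0.834% of all genes, and each rose by more than Pcolce. The 5 were Col1a2 (2.98-fold), Col3a1 (2.73-fold), Col5a1 (2.47-fold), Col5a2 (3.29-fold) and Eln, the elastin gene (3.80-fold), with limma adjusted p between 0.00905 and 0.0464. Col1a1, at 3.08-fold, did not pass (adjusted p = 0.0937). The median log2 fold change of the 9 was 1.45. In SFA-EAA against SFA after TAC Col1a2 fell by 1.97 on the log2 scale (limma adjusted p = 0.0408). It was the 1 gene of the 9 that passed there, beside 0.0365% of all genes that fell.

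Among 15 other genes of propeptide processing and crosslinking, 3 rose in TAC against sham under SFA, beside 0.834% of all genes, and 14 had positive fold changes. They were Adamts2, the procollagen N-proteinase (2.92-fold, limma adjusted p = 0.00905), Tgm2, a transglutaminase that crosslinks matrix proteins (1.64-fold, adjusted p = 0.0449), and Postn, a matricellular protein that supports collagen assembly (8.87-fold, adjusted p = 0.0117). Averaged over diets Bmp1, the procollagen C-proteinase that Pcolce assists, rose 1.71-fold (adjusted p = 0.0291), and fibronectin (Fn1) rose 1.90-fold (adjusted p = 0.0497).

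The other hydroxylation genes, 11 in all, gave no call in TAC against sham under SFA, with a median log2 fold change of 0.29. At an unadjusted limma p under 0.05 there were 6 of the 11, beside 13.4% of all genes. P3h2, a prolyl 3-hydroxylase, was nearest at 2.49-fold (adjusted p = 0.0529) and rose 1.86-fold averaged over diets (adjusted p = 0.0466). P4ha3, which encodes a further prolyl 4-hydroxylase alpha subunit, was 3.92-fold (adjusted p = 0.161) at low values. Of 15 other folding and export genes 1 rose, beside 0.834% of all genes. It was Sparc, a secreted collagen-binding protein (2.43-fold, limma adjusted p = 0.015). Hspa5, the main endoplasmic reticulum chaperone, was the next by p (log2 fold change -0.39, adjusted p = 0.255), and the list's median was 0.07.

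Activated fibroblast markers summed to between 1158 and 1817 in TAC SFA-EAA, 824 and 1021 in sham SFA-EAA, 3404 and 5939 in TAC SFA, and 827 and 922 in sham SFA libraries. Of these 7 markers 4 rose in TAC against sham under SFA (Postn, Cilp, Thbs4 and Meox1), beside 0.834% of all genes. Postn also stands in the crosslinking list above. General fibroblast markers summed to between 7691 and 9705 in TAC SFA-EAA, 9353 and 9757 in sham SFA-EAA, 9993 and 16290 in TAC SFA, and 10500 and 11580 in sham SFA libraries.

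The general sums overlapped between TAC SFA and sham SFA libraries. Of the 9 general markers 2 rose in TAC against sham under SFA (Col15a1 and Pi16), beside 0.834% of all genes. Macrophage markers summed to between 1074 and 1123 in TAC SFA-EAA, 632 and 719 in sham SFA-EAA, 1351 and 1517 in TAC SFA, and 877 and 1116 in sham SFA libraries. None of the 7 passed under SFA (4 at an unadjusted limma p under 0.05, beside 13.4% of all genes). All 7 were higher in both TAC libraries than in either sham library under SFA (24.3% of all genes were) and under SFA-EAA (18.5%). Averaged over diets 1 of the 7 rose, beside 1.38% of all genes (limma). No marker of these 3 lists was at 0 in any library. Mesothelial and epicardial markers summed to at most 96.0, reached in TAC SFA replicate 2, and Upk3b, Msln and Krt19 were each at 0 in some library. TAC SFA replicate 2 also had the highest sums of activated fibroblast markers (5939), general fibroblast markers (16290) and fibrillar substrate genes (10650). Comp, an activated fibroblast marker, was at 782 there against 127 in replicate 1, while Postn was at 1727 against 1777. Fmod, of the crosslinking list, was at 627 against 73.5. Pericyte markers summed to between 4929 and 5975 in TAC SFA-EAA and 6657 and 6954 in sham SFA-EAA libraries. They summed to between 4302 and 4537 in TAC SFA and 4933 and 5486 in sham SFA libraries. Of these 4 markers 1, Abcc9, fell in TAC against sham under SFA, where 205 of 16432 genes passed in either direction. Red blood cell markers summed to between 965 and 3550 in TAC SFA-EAA, 1472 and 1876 in sham SFA-EAA, 2986 and 3315 in TAC SFA, and 2332 and 2443 in sham SFA libraries. Schwann cell markers summed to between 15.6 and 19.4 in TAC SFA-EAA, 36.7 and 45.6 in sham SFA-EAA, 10.8 and 11.4 in TAC SFA, and 23.9 and 34.1 in sham SFA libraries. In TAC against sham under SFA none of the 8 cardiomyocyte, 4 red blood cell and 3 Schwann cell markers passed the test. At an unadjusted limma p under 0.05 there were 2, 0 and 1 of them, beside 13.4% of all genes. The part of these cells in the results was not tested.

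Across the 8 libraries, the genes with the profile most like that of Lox were Soat1 and Nlrc3 (Pearson's r = 0.988 and 0.983 on log2 values, of 9936 genes with a mean of at least 20). Loxl2 was most like Abra, Arhgef12 and Fstl1 (0.988, 0.987 and 0.982). For Pcolce the 3 most like genes were Zyx and the collagen genes Col5a1 and Col1a1 (0.993, 0.992 and 0.989). Loxl1 was most like Sod3, Col6a2 and Esyt1 (0.996, 0.993 and 0.992), and Serpinh1 was most like Slc11a2, Actr1b and Rhog (0.988, 0.981 and 0.981). The 8 points share their groups and the GC trend of their libraries, so that these values describe likeness in this set only.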

How the data were processed

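Libraries were stranded and made from polyadenylated left ventricular RNA, and the instrument was a NextSeq 500, per the labels' protocols. The submitters' processing notes name STAR 2.5, the GRCm38 build and edgeR. No source used here gives the counting step or its use of strand. The deposited values are a normalized signal per gene and not whole counts, so the depth of each library is unknown and no count model was used. Of 49671 genes, 29103 were at 0 in every library.

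A gene was tested if at least 2 libraries reached a value of 1, which left 16432 genes. The test was limma 3.58.1 (R 4.3.3; empirical Bayes with a mean trend) on log2(value + 1), in 1 fit of the 4 groups. Two-sided p-values were adjusted by the Benjamini-Hochberg method separately for the 6 comparisons, and 0.05 was the threshold. A fold on this scale understates the change of low genes. The steps were tested only on simulated data that held no GC trend and no library of high atrial marker sum.

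GC content is that of the longest transcript of each gene in the GENCODE annotation of GRCm38 (99.8% of tested genes had one). For the GC-corrected alternative, each library's trend was removed by a loess curve (span 0.3) fitted on genes with a geometric mean of at least 50. All 10 genes are named, and of the wider lists those past the threshold or, with fewer than 2, those of smallest p. The 10 genes and all lists were chosen with earlier results of these data known. The 3 genes most like a gene in profile are given for 5 of the 10, except for Lox, where 1 of the 3 is not reported here.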

Additional observations from a re-analysis of the deposited data

Results flagged for a closer look

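For Lox, the diet difference had opposite signs after the 2 operations. Lox was higher in both sham SFA-EAA libraries than in both sham SFA libraries, as were 27.6% of all genes. It was lower in both TAC SFA-EAA libraries than in both TAC SFA libraries, as were 21.1%. Neither diet difference passed (limma adjusted p = 0.274 after sham and 0.144 after TAC). Plod2 also had opposite signs, 0.60 after sham and -0.34 after TAC, where its libraries overlapped. For Lox the interaction of surgery and diet gave -2.124 on the log2 scale (limma unadjusted p = 0.000848). It did not pass after adjustment over all genes (adjusted p = 0.75). With the GC trend removed it was -2.08 (limma adjusted p = 0.145).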

How the results depend on the processing

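Of the 10 genes, 3 passed in TAC against sham under SFA and 3 averaged over the diets. Under SFA, where 205 of all genes passed, the count was 1 with no filter on low values (197 of all genes). It was 7 with the GC trend removed (784) and 2 with a pseudocount of 0.25 (150) or quantile normalization (185). With only the 4 libraries compared 0 of the 10 and 0 of all genes passed. An alternative without the 2 libraries of high atrial marker sums was added after seeing the data. It left a lone library in TAC SFA and in sham SFA, so that no call is read from it. Averaged, where 347 of all genes passed, the count was 0 with no filter (56 of all genes). It was 5 with a minimum of 10 in at least 2 libraries (460) and 7 with the GC trend removed (1013). For SFA-EAA against SFA after TAC, 0 of the 10 and 8 of all genes passed. The count there was 3 with the minimum of 10 (70 of all genes), 1 with median-of-ratios scaling (15) and 6 with the GC trend removed (282). Leaving out each library in turn gave 0 to 5 under SFA, 0 to 4 averaged, 0 to 3 for the diet after sham and 0 to 6 for the diet after TAC; a lone library is assumed to vary like the other groups. The causes were not tested.

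The sign of some unpassed values turned. The interaction of Serpinh1 was -0.016 with quantile normalization and -0.032 with the GC trend removed, and ran between -0.17 and 0.28 with 1 library left out. That of Loxl1 was 0.07 without the 2 atrial-rich libraries and between -0.76 and 0.36 with 1 left out, and that of Plod1 between -0.185 and 0.039. In TAC against sham under SFA-EAA, Loxl3 ran between -0.14 and 0.82, Plod2 between -0.46 and 0.12, and P4ha1 between -0.16 and 0.59.

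With a replicate block, 2 genes passed under SFA (Lox and Loxl2), 2 averaged and 0 in the other comparisons. All genes called under SFA were then 96, against 205 without it. Deviations of same-numbered libraries correlated between -0.1002 and 0.0125, so that no pairing by number showed in them. Whether same-numbered libraries shared a batch was not tested. For the diet after TAC the replicate block with crossed numbers, added after seeing the data, called 4 of the 10. It called 70 of all genes there, against 8 without a block and 0 with the replicate block. Among all genes the count under SFA was 0 to 385 with 1 library left out, and 784 with the GC trend removed. Precision is limited by 2 libraries a group, and the depth is unknown.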
